A study of Mus musculus with 12 samples.

Results

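The genes described here are 10 genes known from macrophages, measured in mouse tongue: the C-type lectins Cd209a, Cd209b, Cd209d, Cd209f and Cd209g, and the macrophage genes Mrc1, Cd163, Lyve1, Clec10a and Csf1r. They were taken by name from 32498 named genes, and all 10 passed the filter of a mean of at least 0.1 FPKM (reads scaled for library total and exon length) that left 16847 genes for testing. The question was whether Cd209d, which the study named among genes of immune regulation from these same 12 libraries, followed resident macrophage genes and whether it differed between gallic acid (GA) and vehicle. The 12 bulk RNA-seq libraries were made from tongue, with tumor and tumor-associated cells as the labelled cell type, of C57BL/6 mice bought at 5 weeks of age. Every mouse, controls included, drank the carcinogen 4NQO at 100 µg/mL for 16 weeks. The vehicle group (6 libraries) received the gavage carrier, and the GA group (6 libraries) received GA at 100 mg/kg by gavage 5 times per week from week 4. The labels number the replicates but name no animal, so each library was taken as 1 mouse. All groups were exposed to 4NQO, so no level in unexposed tongue is given here.

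CD209 proteins, whose human counterpart is DC-SIGN, are membrane lectins that bind mannose and fucose on microbes and on host glycoproteins through a calcium-dependent carbohydrate recognition domain. In the mouse the family was multiplied by gene duplication, and its members are found on subsets of tissue macrophages and dendritic cells. Tissue-resident macrophages live under the control of the CSF1 receptor and commonly carry the scavenging receptors MRC1 (CD206), CD163 and, beside vessels, LYVE1.

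The Cd209 genes are similar enough that the placing of reads needs a check. In GRCm38 (GENCODE M21) the 5 lectin genes lie on chromosome 8: Cd209a at chr8:3743397-3748984, Cd209d at chr8:3871824-3878555, Cd209b at chr8:3917655-3926844, Cd209f at chr8:4102787-4105835 and Cd209g at chr8:4134098-4137707. Cd209g is read from the plus strand and the other 4 from the minus strand. The following 60 coding bases of Cd209d (coding bases 436 to 495) are shown because they hold its longest run shared with another Cd209 coding sequence. That run was 25 bases, shared with Cd209b, and untranslated sequence was not searched for such runs. Cd209f and Cd209g are left out because their alignment to Cd209d has a gap in this window. Capitals mark bases that differ from Cd209d at the aligned position, and each stretch crosses a splice junction, so that its coordinates include an intron.
Cd209d (chr8:3873804-3876268, minus strand): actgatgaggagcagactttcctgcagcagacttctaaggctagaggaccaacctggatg
Cd209b (chr8:3920015-3921354, minus strand): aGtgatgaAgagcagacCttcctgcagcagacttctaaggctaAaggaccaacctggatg
Cd209a (chr8:3745569-3746895, minus strand): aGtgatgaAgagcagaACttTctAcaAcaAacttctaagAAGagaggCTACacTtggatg
Cd209e (chr8:3851245-3852756, minus strand): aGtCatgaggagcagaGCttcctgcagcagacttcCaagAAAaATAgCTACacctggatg
Cd209c (chr8:3944138-3944901, minus strand): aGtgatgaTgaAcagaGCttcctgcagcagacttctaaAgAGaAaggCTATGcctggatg
Over these 60 bases Cd209b differed from Cd209d at 4 positions, Cd209c at 14, Cd209e at 15 and Cd209a at 16. Over the whole aligned coding sequence Cd209d was 76.7% identical to Cd209b, 73.4% to Cd209e, 71.6% to Cd209c, 68.2% to Cd209f, 68.0% to Cd209a and 66.8% to Cd209g. None of the 917 distinct stretches of 50 bases in the Cd209d transcripts occurred in a transcript of another gene. The same held for the 1677 stretches of Cd209a and the 2209 stretches of Cd209b. An error-free read of that length from Cd209d, Cd209a or Cd209b thus matched no annotated transcript of another gene, while the rest of the genome was not searched.

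Cd209f and Cd209g are a different case. Their coding sequences were 89.2% identical where aligned, with an unbroken run of 178 bases, and they shared 646 stretches of 50 bases, which were 29.8% of those of Cd209f and 16.6% of those of Cd209g. At 100 bases 467 stretches were still shared. The resemblance reached into the RefSeq promoter windows, so the 250 bases before the RefSeq start site of both genes (GRCm38.p6) are printed with their longest common run in capitals. GENCODE M21 starts Cd209g further upstream, at chr8:4134098, so the stretch printed for it lies inside its annotated exon there. The stretches printed for Cd209f and Cd209d overlap their GENCODE genes in part. For Cd209d the same interval is given with the motif GAGGAA, which appears there on the opposite strand as TTCCTC, in capitals.
Cd209f (chr8:4105765-4106014, minus strand): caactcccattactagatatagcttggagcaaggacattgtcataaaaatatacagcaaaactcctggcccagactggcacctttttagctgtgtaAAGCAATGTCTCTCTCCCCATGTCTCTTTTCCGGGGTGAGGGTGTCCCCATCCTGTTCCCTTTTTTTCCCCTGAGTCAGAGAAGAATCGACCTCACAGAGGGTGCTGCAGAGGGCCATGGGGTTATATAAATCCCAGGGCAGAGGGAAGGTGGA
Cd209g (chr8:4134486-4134735, plus strand): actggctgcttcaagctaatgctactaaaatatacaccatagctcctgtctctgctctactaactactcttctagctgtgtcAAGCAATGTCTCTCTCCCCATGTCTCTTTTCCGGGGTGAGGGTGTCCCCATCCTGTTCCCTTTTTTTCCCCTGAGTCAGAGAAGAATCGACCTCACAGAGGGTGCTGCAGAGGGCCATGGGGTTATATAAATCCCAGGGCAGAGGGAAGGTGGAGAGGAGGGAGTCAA
Cd209d (chr8:3878500-3878749, minus strand): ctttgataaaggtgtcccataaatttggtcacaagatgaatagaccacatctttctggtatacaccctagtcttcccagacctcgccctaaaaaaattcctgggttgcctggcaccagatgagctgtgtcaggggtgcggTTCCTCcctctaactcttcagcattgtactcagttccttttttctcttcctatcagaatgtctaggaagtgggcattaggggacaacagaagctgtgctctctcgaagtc
The common run of Cd209f and Cd209g was 180 bases long, of which the part before the start site is shown. The 300-base promoter windows, which add 50 bases after the start, were 91.8% identical over the aligned bases. The next longest run between promoters of this cluster and the other members with an entry was 17 bases, between Cd209a and Cd209b. GAGGAA, the core of sites bound by the macrophage factor PU.1, was searched on both strands of these windows and occurred 1 time in Cd209d, 3 times in Mrc1 and 0 times in Cd209a, Cd209b, Cd209f, Cd209g and Cd163, while 28.3% of all 32851 promoter windows held it. TGACTCA, the AP-1 site, was present in Cd209f and Cd209g within the common run and in 5.2% of all windows, and TATAAA in Cd209a, Cd209f and Cd209g and in 13.6%. These letters are described as sequence only.

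Other members carry limits of the same kind. The study counted uniquely mapped reads, so fragments lying wholly in the sequence shared by Cd209f and Cd209g were not counted for either. The annotated exons of Cd209g cover all 3610 bases of the gene because a transcript with retained introns is included, whereas its coding transcript has 1169 bases, and the deposited FPKM of Cd209g returned whole reads (within 0.0005 reads in every library) when 3610 bases were used. Its FPKM is accordingly low relative to its reads in comparison with the other lectins. Clec10a shared 9.02% of its 50-base stretches with other genes, most of them with its neighbour Mgl2. For Csf1r, 15.1% of exon bases lie over the antisense gene Hmgxb3, and whether counting used strand is not given in the sources used here. Mrc1 and Lyve1 shared no 50-base stretch with another gene, and Cd163 shared 0.109%.

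The libraries held 18040761 to 21771243 recovered reads with vehicle and 21237175 to 25192574 with GA. Read numbers given below by group are not adjusted for this difference in depth, whereas scaled FPKM are. Reads of Y-linked genes were present in vehicle libraries 1 to 4 and GA library 1 and were at 0 in the other 7, which makes 4 of the 6 vehicle mice and 1 of the 6 GA mice male by this measure. Lipf, a lipase of tongue glands, stood at 8079 to 26220 scaled FPKM in vehicle libraries 3 and 5 and GA library 2 and at most at 0.498 in the other 9. Krt13, a keratin of tongue epithelium, was at 5579 to 22195 scaled FPKM, and Acta1, the actin of skeletal muscle, at 420 to 4011, so every library held both tissues. In bulk tissue, fewer cells of a type and less RNA per cell cannot be told apart.

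Cd209d had low read support in every library. Scaled FPKM of Cd209d, which are per length and were aligned between libraries by a trimmed mean, ran in vehicle libraries 1 to 6 at 0.777, 2.21, 0.952, 0.381, 0.248 and 0.670. In GA libraries 1 to 6 they were 3.70, 1.49, 2.02, 1.11, 2.86 and 0.342. Behind these values stood 5 to 37 reads in the vehicle group and 8 to 72 in the GA group, 324 reads in all. Vehicle library 2 was higher than 4 of the 6 GA libraries and GA library 6 was lower than 5 of the 6 vehicle libraries, so the groups overlapped.

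The other lectins reached similar or lower levels. Cd209a, the mouse gene long known as DC-SIGN, lay between 0.267 and 1.82 scaled FPKM in the vehicle group (median 0.621) and between 0.245 and 3.90 in the GA group (median 0.915). Cd209f lay between 0.164 and 1.83 (median 0.475) with vehicle and between 0.394 and 3.88 (median 0.878) with GA. In both genes GA library 1 was the highest of all 12 and vehicle library 2 the next, and the groups overlapped.

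Cd209g and Cd209b were near the limit of detection. Cd209g had 0 to 0.182 scaled FPKM with vehicle (median 0.121, at most 13 reads) and 0.117 to 0.721 with GA (median 0.188, 11 to 56 reads). Vehicle library 4 had 0 reads of Cd209g, which allows up to 3 reads or 0.0358 scaled FPKM by counting error alone. Cd209b, known as SIGNR1 from marginal zone macrophages of the spleen, had 0.0257 to 1.03 scaled FPKM with vehicle (median 0.125, 1 to 40 reads) and 0 to 0.602 with GA (median 0.257, at most 28 reads). Its highest value was vehicle library 2, and GA library 6 had 0 reads, which allows up to 0.0549 scaled FPKM. Cd209g was highest in GA library 1, 0.721 against 0.297 in the next library.

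Among the macrophage genes, Mrc1, the mannose receptor, lay at 0.804, 2.01, 2.56, 1.15, 2.67 and 0.904 scaled FPKM in vehicle libraries 1 to 6. In GA libraries 1 to 6 it was 5.38, 3.57, 1.39, 0.868, 1.48 and 0.723. The values of GA libraries 1 and 2 exceeded every vehicle library, and the other 4 GA libraries lay below the vehicle median of 1.58. Cd163, the receptor that takes up haptoglobin with hemoglobin, spanned 0.385 to 2.07 (median 1.33) with vehicle and 0.464 to 3.25 (median 1.48) with GA. Clec10a, a lectin for galactose and N-acetylgalactosamine also called MGL1, spanned 0.317 to 1.33 (median 0.665) with vehicle and 0.133 to 4.61 (median 1.33) with GA. It had the widest span of the members without a library at 0, with the highest library 34.6 times the lowest.

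Lyve1, the hyaluronan receptor that also marks lymphatic endothelium, spanned 1.43 to 7.90 scaled FPKM (median 3.73) with vehicle and 1.82 to 5.51 (median 3.84) with GA. Csf1r, the receptor for CSF1 and IL34, spanned 2.37 to 7.25 (median 4.01) with vehicle and 2.27 to 7.83 (median 3.0) with GA. Lyve1 was highest in vehicle libraries 3 and 5 and Csf1r in GA library 1 and vehicle library 5.

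**Figure D1:**
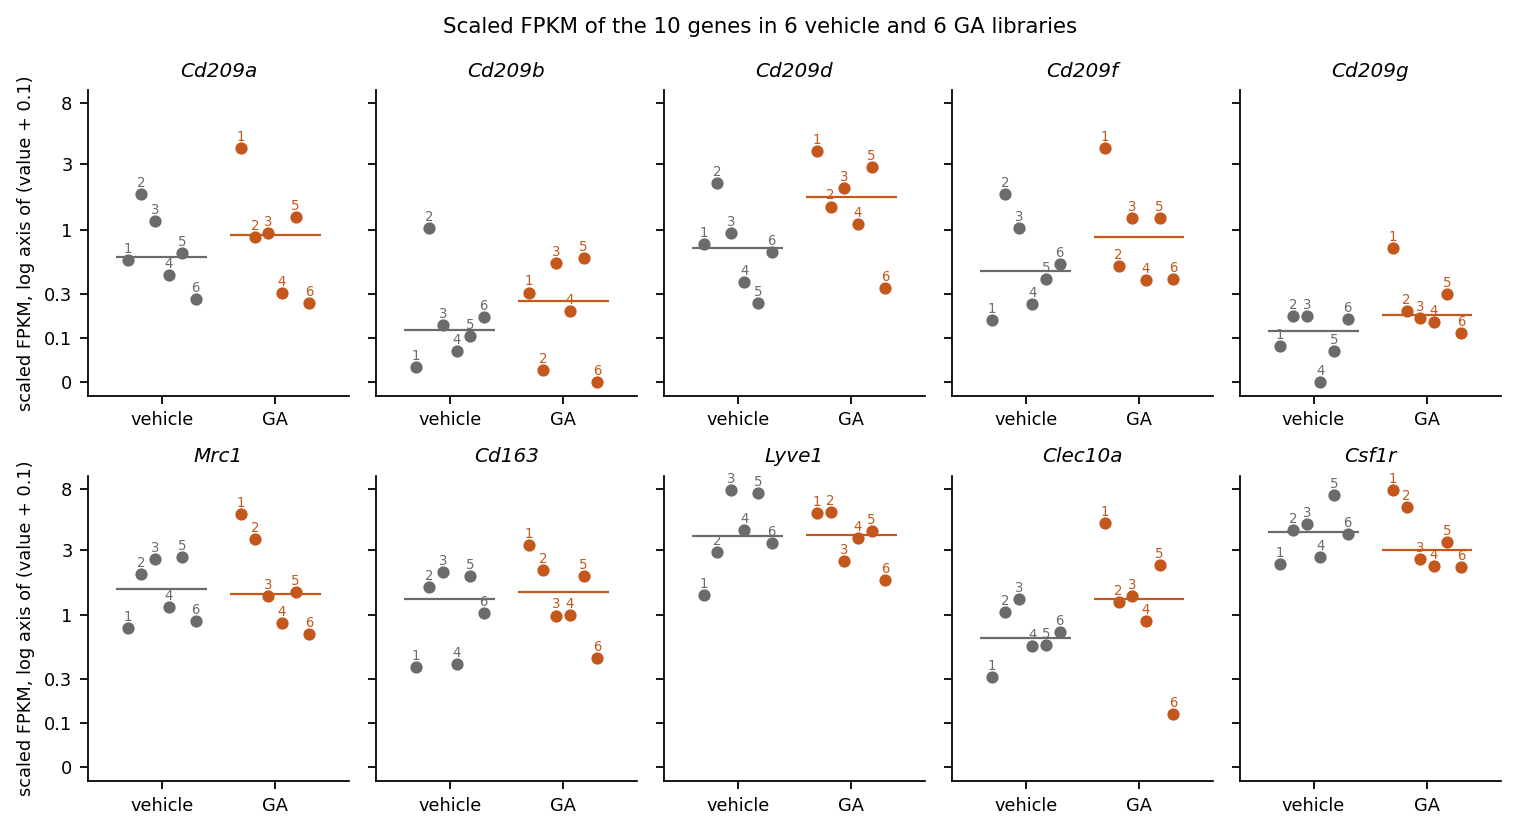
Scaled FPKM of the 10 genes on a logarithmic axis of the value plus 0.1, with vehicle libraries in grey and GA libraries in orange, the replicate number above each point and a line at the group median. GA library 1 is the highest of the 12 for 8 of the 10 genes, and the groups overlap in all 10.

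By their mean over 12 libraries the genes ranked from Lyve1 (4.18 ± 2.07 scaled FPKM, SD, n = 12) and Csf1r (4.11 ± 1.96) through Mrc1 (1.96 ± 1.40), Cd163 (1.44 ± 0.874), Cd209d (1.40 ± 1.09), Clec10a (1.27 ± 1.20), Cd209a (1.04 ± 1.02) and Cd209f (0.990 ± 1.04) to Cd209b (0.269 ± 0.310) and Cd209g (0.195 ± 0.183). Apart from Csf1r and Mrc1, and from Cd209f and Cd209b, neighbours in this order differed by less than the smaller of their SDs over libraries. By mean scaled FPKM Cd209d was thus the highest of the Cd209 lectins, within the spread of Cd209a and Cd209f. This rank depends on the exon length, which was 919 bases for Cd209d, 1583 for Cd209a and 1988 for Cd209f. By reads over the 12 libraries Cd209f (502) and Cd209a (415) exceeded Cd209d (324). The exons of Cd209f include transcripts with retained introns, while its coding transcripts have 1165 and 1186 bases. The other genes of the cluster were also low. Cd209c reached at most 0.234 scaled FPKM (10 reads) and Cd209e at most 0.725 (30 reads), and Clec4g and Fcer2a were below the filter on low values. Cd209h was not analysed here.

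In the comparison of GA with vehicle, 8 of the 10 members had a positive log2 fold change, 4 of them of 0.58 or more, and 0 of 10 met the limits of the study's methods, which are an adjusted p under 0.1 together with a log2 fold change of 0.58 or more in either direction. Over all tested genes 0.0% were called, 51.0% had a fold change above 0 and 4.33% one of 0.58 or more. At an unadjusted p below 0.05 there were 0 members, against 364 genes or 2.16% of those tested (1.12% higher with GA). The median log2 fold change was 0.33 over the 10 members, 0.69 over the 5 Cd209 genes and 0.18 over the 5 macrophage genes, beside 0.0043 over all tested genes. These medians describe the list and carry no test.

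Cd209d had the highest log2 fold change of the 10 at a pseudocount of 0.1. With a pseudocount of 0.01 that of Cd209g was higher (1.48 against 1.13), as it was with limma-voom on recovered reads (1.60 against 1.09). Its mean was 0.873 ± 0.704 scaled FPKM (SD, n = 6) with vehicle and 1.92 ± 1.22 (SD, n = 6) with GA, and its log2 fold change was 1.03 (SE 0.54) on the scale of log2(scaled FPKM + 0.1), which understates the change of low genes. Of the 6 GA libraries, 5 lay above the vehicle median. The exact permutation test (two-sided, over every way to choose 6 of the 12 libraries, smallest possible p 0.0022) gave p = 0.117 for Cd209d, and the adjusted p in limma over all genes was 1.00. A difference in Cd209d was therefore not detected by either test. The study reports Cd209d as upregulated with GA, from edgeR on read counts at the limits given above. Why the outcomes differ was not tested. Because the study picked Cd209d from these libraries, its direction here is not independent evidence.

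For the other lectins the log2 fold changes were 0.77 (SE 0.38) for Cd209g, 0.69 (SE 0.59) for Cd209f, 0.27 (SE 0.57) for Cd209a and 0.18 (SE 0.62) for Cd209b. Their exact permutation p-values were 0.0563, 0.307, 0.677 and 0.790 in the same order. For the macrophage genes they were 0.72 (SE 0.59) for Clec10a, 0.39 (SE 0.50) for Cd163, 0.18 (SE 0.48) for Mrc1, -0.10 (SE 0.35) for Csf1r and -0.13 (SE 0.40) for Lyve1, with exact permutation p-values of 0.299, 0.455, 0.736, 0.794 and 0.766. Without GA library 1 the values of Cd209a and Mrc1 turned to -0.14 and -0.13, and without GA library 2 that of Mrc1 to -0.017. The signs of Cd209b, Csf1r and Lyve1 also changed when certain libraries were left out.

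**Figure D2:**
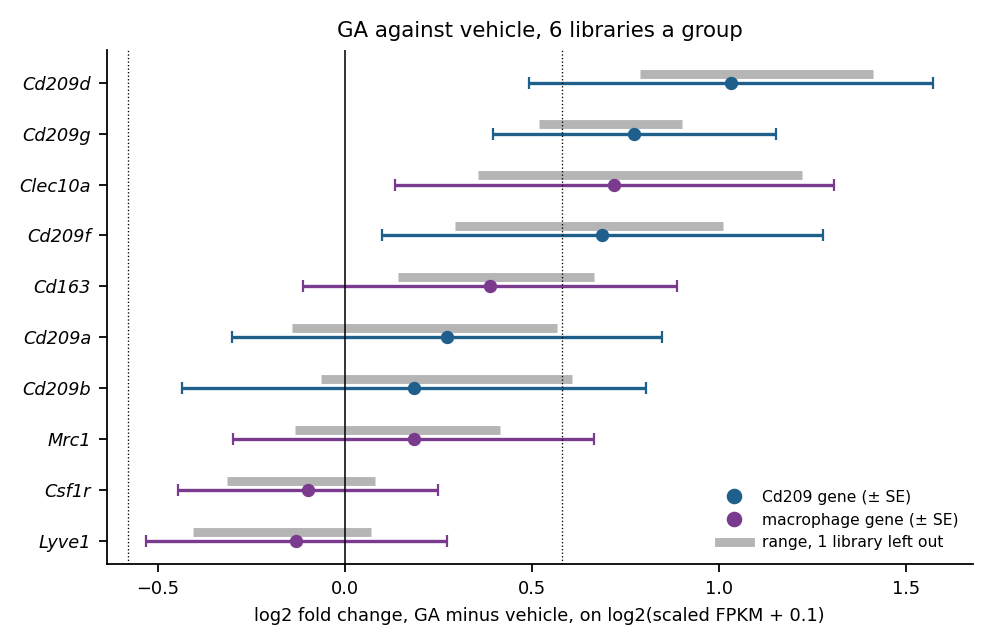
Log2 fold changes of GA against vehicle for the 10 genes, as points with the standard error of the limma fit, Cd209 genes in blue and macrophage genes in purple, with a grey bar for the range when each of the 12 libraries was left out in turn. Dotted lines stand at 0.58 on both sides, and at this pseudocount of 0.1 Cd209d has the highest value, 1.03, with a range of 0.79 to 1.41, whereas Cd209g is higher at a pseudocount of 0.01 and with limma-voom.

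GA library 1 weighed on most of these means. It was the highest of 12 libraries for 8 of the 10 members, beside 6.47% of all tested genes, and it was the only GA library with Y-linked reads. Within the 7 libraries without Y-linked reads (2 vehicle, 5 GA) the difference of the mean log2 levels was 1.43 for Cd209d, between 0.22 and 0.45 for the other 4 lectins and Clec10a, and -0.18, -0.27, -0.61 and -0.76 for Mrc1, Cd163, Lyve1 and Csf1r. Within the 5 libraries with such reads (4 vehicle, 1 GA) it was 1.92 for Cd209d and between 0.58 and 2.58 for the other 9. With a term for Y-linked reads in the limma fit, Cd209d had a log2 fold change of 1.61 (SE 0.56), an unadjusted p of 0.0152 and an adjusted p of 0.996 over all genes. The part of sex in the differences was otherwise not tested.

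Across the 12 libraries Cd209d moved with the other Cd209 genes and with Clec10a. On the log2 scale, Pearson's r with Cd209d was 0.834 for Clec10a, 0.817 for Cd209g, 0.796 for Cd209f, 0.764 for Cd209a and 0.702 for Cd209b. In two-sided permutation tests with 100000 resamples the raw p-values were 0.0005, 0.00035, 0.00189, 0.00339 and 0.0118, and adjusted over the 9 relations they were 0.00225, 0.00225, 0.00567, 0.00763 and 0.0213. Spearman's rho was 0.860, 0.853, 0.741, 0.790 and 0.713 for the same genes, with raw permutation p-values of 0.00064, 0.00078, 0.00813, 0.00311 and 0.0118 and adjusted values of 0.00351, 0.00351, 0.0183, 0.00933 and 0.0213. Among all tested genes, 0.463% had an r with Cd209d as high as that of Clec10a, 0.712% as high as that of Cd209g and 4.70% as high as that of Cd209b. A coefficient of at least 0.8 was reached by 2 of the 9 members beside 1.07% of all tested genes, and of at least 0.6 by 5 of the 9 beside 9.84%. Since GA library 1 and vehicle library 2 stood high in several of these genes, the relations rest partly on the same libraries.

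With the remaining resident macrophage genes the relation was not detected over all 12 libraries. Pearson's r with Cd209d was 0.577 for Cd163 (permutation p = 0.0517, adjusted 0.0775), 0.451 for Mrc1 (p = 0.141, adjusted 0.181), 0.222 for Csf1r (p = 0.480, adjusted 0.540) and 0.0452 for Lyve1 (p = 0.887, adjusted 0.887). Spearman's rho was 0.517 (permutation p = 0.0875, adjusted 0.131), 0.448 (p = 0.146, adjusted 0.188), 0.266 (p = 0.404, adjusted 0.454) and 0.0210 (p = 0.956, adjusted 0.956). For comparison, 11% of all tested genes had an r with Cd209d as high as that of Cd163, 18% as high as that of Mrc1, 31.8% as high as that of Csf1r and 43.8% as high as that of Lyve1. The difference between these coefficients and those of the lectins was not tested.

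**Figure D3:**
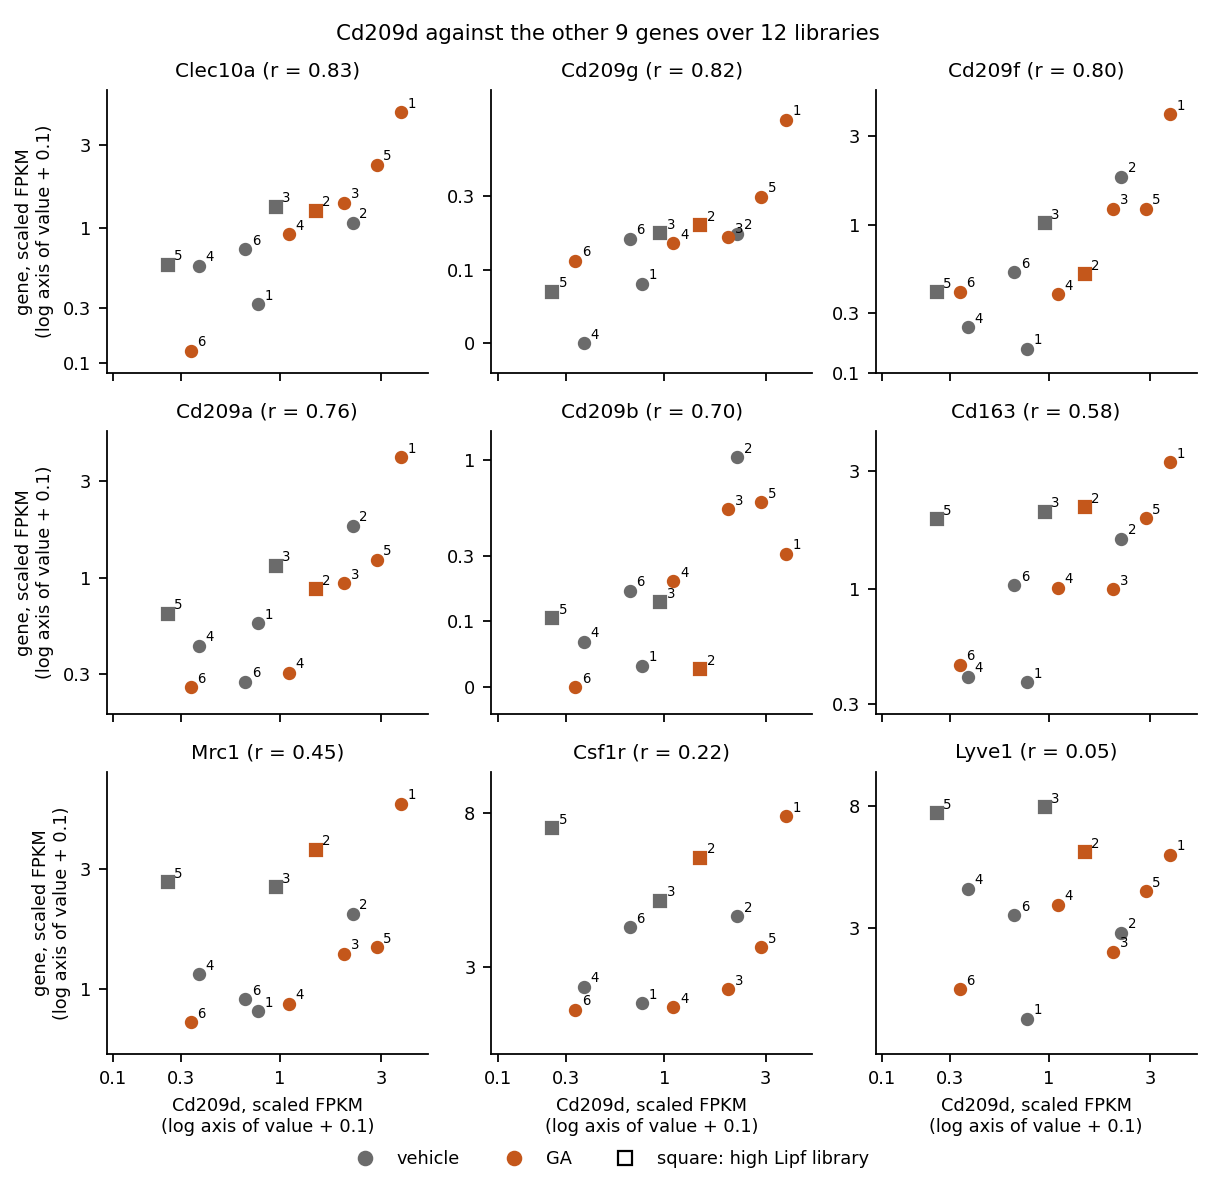
Cd209d against each of the other 9 genes in scaled FPKM on logarithmic axes of the value plus 0.1, with 1 point per library labelled by replicate number, vehicle in grey and GA in orange, ordered by Pearson's r. Squares are the 3 libraries with high Lipf, where Csf1r, Lyve1 and Mrc1 are high while Cd209d runs from 0.248 to 1.49.

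For Cd163 and Mrc1, r with Cd209d passed the threshold once the 3 libraries with high Lipf were left out, though the change in r itself was not tested. Vehicle library 5 had the lowest Cd209d of all (0.248 scaled FPKM, 5 reads) beside Csf1r of 7.25, Mrc1 of 2.67 and Lyve1 of 7.53. In the 9 libraries without high Lipf, a subset added after seeing the data, r with Cd209d was 0.894 for Cd163 (exact permutation p = 0.00188, adjusted 0.00596) and 0.778 for Mrc1 (exact p = 0.00444, adjusted 0.00666). In the same 9 libraries it was 0.652 for Csf1r (exact p = 0.0454, adjusted 0.0510) and 0.455 for Lyve1 (exact p = 0.220, adjusted 0.220), and the 4 other lectins and Clec10a lay between 0.814 and 0.895. Leaving out vehicle library 5 alone brought Cd163 to 0.803 (adjusted permutation p = 0.00634) and Mrc1 to 0.674 (adjusted permutation p = 0.0302). No other single library left out brought either gene past the threshold. Without GA library 1 alone, r fell to 0.455 for Cd163 and 0.230 for Mrc1. In the 7 libraries without Y-linked reads, the other subset added after seeing the data, it was 0.349 for Cd163 and 0.121 for Mrc1. The 3 libraries with high Lipf are too few for a value of their own.

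**Figure D4:**
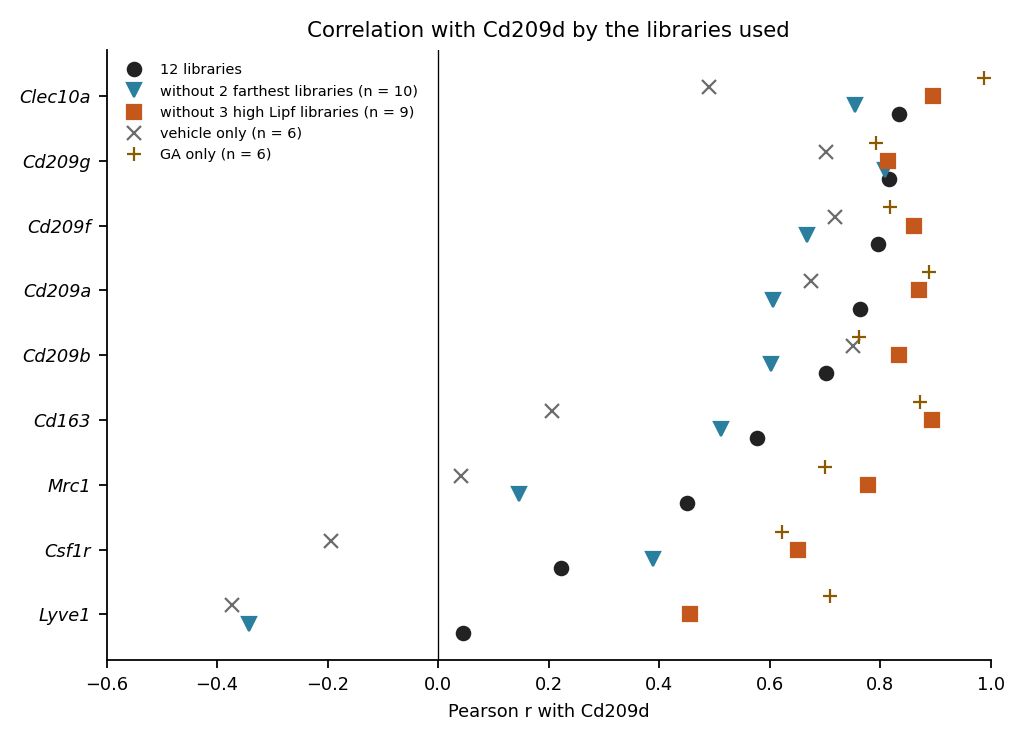
Pearson's r of Cd209d with each of the other 9 genes over all 12 libraries and over 4 subsets of them, marked by symbol. The lectins and Clec10a stay at 0.490 or above in each subset, whereas Lyve1 runs from -0.37 in the vehicle group to 0.71 in the GA group.

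Within the vehicle group alone (n = 6) r with Cd209d lay between -0.37 and 0.75 and 0 of the 9 relations passed an adjusted p of 0.05 in the exact permutation test. Within the GA group (n = 6) it lay between 0.62 and 0.99, and Clec10a alone passed (r = 0.988, exact permutation p = 0.00139, adjusted 0.0125). When the deviations from the group means were used, the same 5 genes as over all libraries passed, with r from 0.754 to 0.815. Leaving out the 2 libraries farthest from the median of the other gene left Cd209g alone past the threshold (r = 0.808, permutation p = 0.00495, adjusted 0.0445), while Clec10a had 0.755 (adjusted permutation p = 0.0526), Cd209f 0.668, Cd209a 0.607 and Cd209b 0.603. The relations with the latter 4 genes no longer passed with these 10 libraries, although those of Clec10a, Cd209f and Cd209a passed whenever 1 library alone was left out. In the 7 libraries without Y-linked reads, also added after seeing the data, Cd209g (r = 0.903, exact permutation p = 0.00258, adjusted 0.0232) and Clec10a (r = 0.859, exact permutation p = 0.00635, adjusted 0.0286) passed. The 5 libraries with Y-linked reads are too few for a value.

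Seen over all pairs, the median r was 0.748 among the 5 Cd209 genes (10 pairs, 0.463 to 0.844), 0.750 among the 5 macrophage genes (10 pairs, 0.533 to 0.909) and 0.562 between both sets (25 pairs, 0.0452 to 0.834). These pairs share libraries and are given as a description. The highest was that of Mrc1 with Csf1r at 0.909, and Cd209f with Cd209g, which share sequence, stood at 0.843. Cd209a had an r of 0.810 with Mrc1, higher than that of Cd209d with Mrc1, and Clec10a had an r of 0.807 with Cd163.

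**Figure D5:**
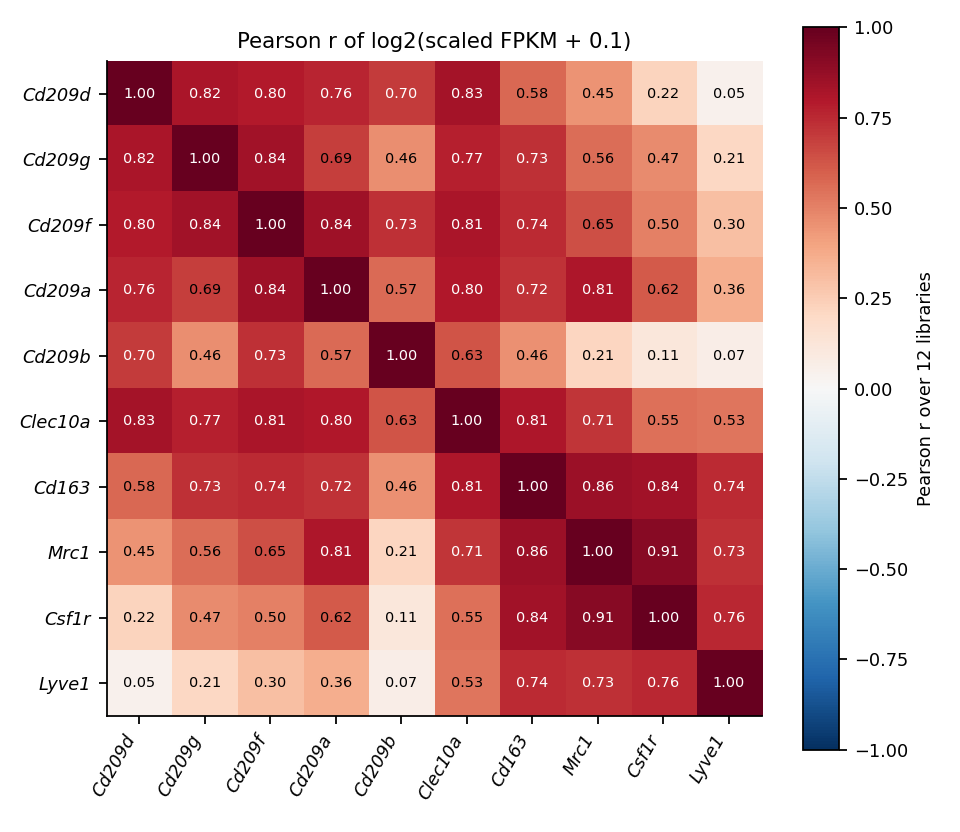
Pearson's r between the 10 genes over 12 libraries, on log2(scaled FPKM + 0.1), with red for positive values and the coefficient in each cell. Values among the Cd209 genes have a median of 0.748 and those among the macrophage genes of 0.750, and Cd209d has its lowest value with Lyve1 at 0.05.

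The ratio of Cd209d to each of the other members was compared between the groups, as a check of Cd209d against its own kind. The log2 ratio was higher with GA for all 9, by 0.26 against Cd209g, 0.31 against Clec10a, 0.34 against Cd209f, 0.64 against Cd163, 0.76 against Cd209a, 0.85 against Cd209b and Mrc1, 1.13 against Csf1r and 1.16 against Lyve1. The lowest exact permutation p was 0.0714, for the ratio to Cd209a, with 5 of 6 GA libraries above the vehicle median. For the ratio to Csf1r it was 0.0801 with 5 of 6. For the ratio to Cd209b it was 0.0931 and for that to Lyve1 0.123, both with 6 of 6. Adjusted over the 9 ratios the lowest p was 0.278, so none of these differences was detected by the test. All 9 ratios share the Cd209d values.

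Other macrophage genes, from lists written with earlier results of these data known, gave no call in either direction. Of 15 other resident macrophage genes 8 were higher and 7 lower with GA, 0 were called, and their median log2 fold change was 0.065. The most abundant, Gas6 (a ligand of the TAM receptors) and Cbr2 (a carbonyl reductase), had log2 fold changes of 0.065 (SE 0.21) and 0.089 (SE 0.26). Their r with Cd209d over the 12 libraries was 0.780 and 0.255. Over the 15 genes it ran from -0.819 for Stab1 to 0.785 for Cd209c, without a test. It was also negative for Maf (-0.034) and Vsig4 (-0.19) and positive for the rest. Stab1, Maf and Vsig4 are named here after their values were seen. Of 13 genes common to macrophages 3 were higher and 10 lower, with a median of -0.19. Lyz2, the lysozyme of myeloid cells, had a log2 fold change of -0.19 (SE 0.62).

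The genes of the CSF1R axis numbered 7 tested, of which 0 were higher and 7 lower, with a median of -0.26 and 0 called. Among them Il34, a ligand of CSF1R made by epithelium, had -0.055 (SE 0.30), and Tyrobp, an adaptor of myeloid receptors, -0.42 (SE 0.58). Of 9 genes of inflammatory or tumour macrophages 1 was higher and 8 lower (median -0.55), with Arg1 (arginase) at -0.45 (SE 0.34) and Spp1 (osteopontin) at -0.78 (SE 1.34). Arg1 averaged 112 scaled FPKM with vehicle and 85.1 with GA, and Gas6 72.6 and 77.8, beside 4.14 and 4.07 for Csf1r. Which cells of the tongue made Arg1 and Gas6 was not tested. Of 6 monocyte genes 2 were higher and 4 lower (median -0.28), with Ccr2, a chemokine receptor, at 0.037 (SE 0.47) and Plac8 at -0.10 (SE 0.77). Of 14 myeloid C-type lectins outside the Cd209 cluster 6 were higher and 8 lower (median -0.22), with Clec4d at -1.80 (SE 1.20) and Clec4n at -0.72 (SE 0.62). None of these genes was called. Of 12 dendritic cell genes 3 were higher and 9 lower (median -0.096), with the antigen-presentation genes Cd74 at -0.089 (SE 0.28) and H2-Ab1 at -0.11 (SE 0.20). Mgl2, the closest relative of Clec10a and named here after its values were seen, had 0.24 (SE 0.50) and an r of 0.820 with Cd209d. That was the highest r with Cd209d on both the dendritic cell list and the list of myeloid C-type lectins. The lowest were -0.309 for Itgax among the dendritic cell genes and -0.611 for Clec4n among the lectins, without a test. Of 6 lymphatic endothelial genes 4 were higher and 2 lower (median 0.17), with Pdpn, also a gene of basal keratinocytes, at -0.94 (SE 0.49) and Ccl21a at -0.096 (SE 0.32). Cd209c and Cd209e of the Cd209 cluster had 0.42 (SE 0.32) and 0.47 (SE 0.48).

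The members also differed in how they moved with the level of other genes, given here as r over 12 libraries without a test. With the mean log2 level of the genes common to macrophages (members left out), r was 0.880 for Csf1r, 0.799 for Mrc1, 0.681 for Lyve1 and 0.578 for Cd163. It was 0.386 for Cd209a, 0.264 for Cd209f, 0.239 for Clec10a, 0.164 for Cd209g, -0.098 for Cd209d and -0.19 for Cd209b. With the mean level of skeletal muscle genes, all 10 members had a positive r, from 0.291 for Cd209b to 0.822 for Cd163, and Cd209d had 0.413. Single muscle genes, named here after their values were seen, differed in their r with Cd209d. It was -0.363 for Myh2 and -0.313 for Actn3 and positive for the rest, up to 0.810 for Myh4. Of the 9 measured genes of tongue epithelium, Cd209d had a negative r with 5, named here after their values were seen. These were the keratins of basal and activated epithelium Krt14 (-0.934), Krt5 (-0.818) and Krt6a (-0.763), the basal transcription factor Trp63 (-0.674) and the desmosome gene Dsg3 (-0.674). With the most abundant keratins of the list, Krt13 and Krt4, its r was 0.256 and 0.421. The summed scaled FPKM of the epithelial list ran from 17006 to 40616 with vehicle and from 14046 to 26900 with GA, its median log2 fold change was -0.16 (2 higher and 7 lower, 0 called), and its part in the level of Cd209d was not tested. With neutrophil genes, which had a median log2 fold change of -0.71 (0 higher and 9 lower), Cd209d had -0.477 and Lyve1 0.658. The summed scaled FPKM of the neutrophil list ran from 1192 to 2620 with vehicle and from 235 to 1946 with GA. Most of that sum came from S100a8 (mean 663 with vehicle, 458 with GA) and S100a9 (1062 and 762). The next most abundant gene of the list, Ltf, averaged 25.7 and 20.4. Which cells of the tongue made S100a8 and S100a9 was not tested, so the sum is not given as neutrophil content. The summed scaled FPKM of the muscle list ran from 1401 to 11570 with vehicle and from 2099 to 8884 with GA. With the neutrophil level as a term the log2 fold change of Cd209d was 0.78 (SE 0.55), with the muscle level 0.95 (SE 0.51), with the gland level 0.98 (SE 0.56) and with the macrophage level 1.03 (SE 0.57).

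The genes most like each member in their pattern over the 12 libraries were sought among those with a mean of at least 1 scaled FPKM. For Cd209d these were H2bc21, a histone H2B gene (r = 0.955), Rom1, a membrane protein known from photoreceptors (0.917), Ncbp2as2 (0.893), Sbk1, a kinase (0.890), and Extl1, a glycosyltransferase of heparan sulfate synthesis (0.888). None of them is on the macrophage lists. No conclusion is drawn from this, since 5 genes are few and Cd209b, Cd209f and Cd209g were below this level. For Mrc1 they were Mfap5, a protein of elastic microfibrils (0.960), Adcy7, an adenylyl cyclase (0.917), F13a1, coagulation factor XIII of macrophages (0.915), Lum, the collagen-binding lumican (0.909), and Csf1r (0.909). For Csf1r they were Serpinf1, which encodes PEDF (0.952), Fn1, fibronectin (0.943), Unc93b1, the chaperone of endosomal Toll-like receptors (0.922), Lum (0.914) and Laptm5, a lysosomal protein of blood cells (0.913). For Cd163 they were Kctd12b (0.967), Hic1, a transcriptional repressor (0.957), Ifi207 (0.955), Lpar1, a receptor for lysophosphatidic acid (0.950), and Selenop, the selenium carrier (0.948). Lum was thus shared by Mrc1 and Csf1r, and 0 of the 5 genes of Cd209d were shared with the other 3 members.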

How the data were processed

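Bulk RNA-seq was analysed from 12 libraries of mouse tongue (6 vehicle, 6 GA), grouped by their labels. Reads had been aligned by the authors with HISAT2 (mm10) and those mapping uniquely assigned to genes by featureCounts. The authors deposited FPKM values for 55463 rows per library. The 22965 rows without a gene name (16.2% to 25.5% of FPKM) were left out. FPKM is not a count, so the main test used no count model, and limma-voom on recovered reads was an alternative only. Low values (1 to 8 reads) were whole multiples of the value of 1 read within 0.02 reads in 97.7% to 98.3% of cases, with exon lengths from GENCODE M21 less an offset of 17.1 to 24.2 bases per library that was estimated from the values. Recovered totals were 18040761 to 25192574 reads, and the reads quoted are these recovered ones.

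Libraries were aligned by trimmed means of their log ratios (factors 0.914 to 1.08). Genes averaging at least 0.1 scaled FPKM were compared with limma 3.58.1 (R 4.3.3; empirical Bayes with a trend) on log2(scaled FPKM + 0.1), with Benjamini-Hochberg adjustment over 16847 genes. limma stands in for the count test of the study, whose thresholds were kept. The fit was tested on simulated data. Named genes were tested singly by exact permutation, and correlations by permutation (exact below 10 libraries). Pairs of replicates had Spearman's rho between 0.929 and 0.955, and no library was treated as a copy. P-values set a difference or a correlation against the variation between libraries. Coding and transcript sequences came from GENCODE M21 and promoters from RefSeq (GRCm38.p6). Promoters of Lyve1, Clec10a and Csf1r and protein sequences were not used here.

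The members and lists were chosen with earlier results of these data known. The text names the 10 members, the other genes of the Cd209 cluster, the 2 most abundant genes of the myeloid and lymphatic lists (1 of them is not reported here) and the 5 genes most like Cd209d, Mrc1, Cd163 and Csf1r, and exceptions are marked. Alternatives covered the pseudocount, filter, scaling, trend, limma-voom on recovered reads, the replicate block, terms for sex and tissue content, and each library left out. Subsets without Y-linked reads or high Lipf and the ratios of Cd209d to other members were added after seeing the data.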

Additional observations from a re-analysis of the deposited data

Results flagged for a closer look

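Cd209b stood out in vehicle library 2, at 1.03 scaled FPKM (40 reads) against at most 0.177 in the other 5 vehicle libraries. On the scale of log2(scaled FPKM + 0.1), the gap to the nearest of them was 0.640 of the range of the group, above Dixon's 95% critical value for 6 samples. On this scale it was the only 1 of 20 groups of values (5.0%) beyond that limit, where chance alone gives about 1 in 20.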

How the results depend on the processing

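Among alternatives other than leaving out a library, 0 genes were called over 14 settings, and the log2 fold changes of Cd209d (0.60 with a pseudocount of 1 to 1.61 with the sex term), Cd209g (0.19 with a pseudocount of 1 to 1.60 with limma-voom), Cd209a, Cd209f, Mrc1, Cd163 and Clec10a stayed positive. Cd209b turned to -0.050 with a pseudocount of 0.01, -0.12 with limma-voom on recovered reads and -0.089 with the neutrophil term. Lyve1 turned to 0.051, 0.20 and 0.033 and Csf1r to 0.031, 0.15 and 0.084 with the gland, neutrophil and macrophage terms. Genes at an unadjusted p below 0.05 numbered 364, and 552 with no filter, 214 with a mean of at least 1 FPKM and 693 with the muscle term.

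Leaving out each library gave 0 to 1 called genes (1 without vehicle library 4) and 246 to 840 at an unadjusted p below 0.05 (801 without vehicle library 3, 840 without GA library 6). The log2 fold change of Cd209d ran from 0.79 to 1.41, Cd209a from -0.14 to 0.57, Cd209b from -0.063 to 0.61, Mrc1 from -0.13 to 0.41, Lyve1 from -0.41 to 0.071 and Csf1r from -0.32 to 0.080. The sign changed without vehicle library 1 or GA libraries 3 or 5 for Cd209b, without vehicle libraries 3 or 5 or GA library 6 for Lyve1, and without vehicle library 5 or GA libraries 4 or 6 for Csf1r. Pearson's r with Cd209d ran from 0.645 to 0.802 for Cd209b (past the threshold except without GA libraries 5 or 6), 0.230 to 0.674 for Mrc1, 0.455 to 0.803 for Cd163, -0.14 to 0.320 for Lyve1 and -0.041 to 0.581 for Csf1r. It stayed past the threshold for Cd209a, Cd209f, Cd209g and Clec10a.

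In the vehicle group r lost its call at 0.675 for Cd209a, 0.752 for Cd209b, 0.718 for Cd209f, 0.701 for Cd209g and 0.490 for Clec10a, and was -0.37 for Lyve1 and -0.19 for Csf1r. In the GA group it lost its call at 0.888 for Cd209a, 0.761 for Cd209b, 0.817 for Cd209f and 0.793 for Cd209g. Both groups hold fewer libraries. Without the 2 farthest libraries it lost its call at 0.607 for Cd209a, 0.603 for Cd209b, 0.668 for Cd209f and 0.755 for Clec10a and was -0.34 for Lyve1. In the 7 libraries without Y-linked reads it lost its call at 0.649 for Cd209a, 0.676 for Cd209b and 0.794 for Cd209f, and was -0.078 for Lyve1 and -0.24 for Csf1r. In the 9 libraries without high Lipf it gained a call at 0.778 for Mrc1 and 0.894 for Cd163. The cause of these changes was not tested.

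With the replicate block the log2 fold change of Cd209d was 1.03 (SE 0.52) and 0 genes were called, with 244 at an unadjusted p below 0.05. Deviations of libraries with the same number had correlations of -0.37 to 0.080, and the labels tie numbers to nothing shared, so the numbers do not pair the samples. Depth limits Cd209b and Cd209g most, with 142 and 182 reads over all 12 libraries.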
